A study of Mus musculus with 24 samples.

Results

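The receptors through which myeloid progenitors sense growth factors and cytokines were read from RNA sequencing of ER-Hoxb8 cells as 9 genes. They are *Kit*, *Flt3*, *Csf1r*, *Csf2ra*, *Csf2rb*, *Csf2rb2*, *Csf3r*, *Il3ra* and *Il6ra*, the mouse receptor genes for SCF, FLT3 ligand, M-CSF, GM-CSF, G-CSF, IL-3 and IL-6. The genes were chosen for what their proteins bind, with earlier results of these data known, among 53801 genes of the count table. All 9 were among the 12963 genes with enough reads to be tested.

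ER-Hoxb8 cells are a murine line of granulocyte-monocyte progenitors (GMP) held in a progenitor state by Hoxb8 fused to the estrogen receptor, and they mature toward neutrophils once beta-estradiol is removed. Stable lines carried an empty lentiviral vector (BB), human wild-type ERG (WT-ERG) or human ERG with the P199L substitution (P199L-ERG), and were sorted on GFP after transduction. ERG is an ETS transcription factor that binds DNA at a GGAA core. Beta-estradiol was washed off all cells, which were then kept for 36 h with 5 µM BRD3308, an inhibitor of the histone deacetylase HDAC3, or with DMSO, its solvent. Other passages of the study give a different dose and time for this experiment. Each of the 6 groups had 4 libraries, 24 in all. The study describes 4 independent experiments per sample type but not separate transductions, so a difference between constructs can include a difference between derived lines, and p values measure the spread between these libraries. The groups are named below by construct and treatment, and the counts hold mouse genes only, with no row for the human transgene.

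Growth factor receptors of progenitors fall into a few families. KIT, FLT3 and CSF1R are receptor tyrosine kinases that dimerise when SCF, FLT3 ligand or M-CSF binds. The receptors for GM-CSF and IL-3 pair a specific alpha chain (*Csf2ra*, *Il3ra*) with a signalling beta chain (*Csf2rb*), to which the mouse adds *Csf2rb2*, a close paralog that serves IL-3 alone. CSF3R, the G-CSF receptor of the neutrophil lineage, signals as a homodimer, and IL6RA binds IL-6 and signals through the shared chain gp130, encoded by *Il6st*. As cells leave the progenitor state, SCF and FLT3 signalling typically give way to G-CSF in neutrophils and to M-CSF in monocytes and macrophages.

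Libraries held 12510036 to 16280939 counts. The 5 GMP markers *Mpo*, *Elane*, *Prtn3*, *Ctsg* and *Ms4a3* were high in every library, with a summed level of 22260 to 30450 CPM (counts scaled to a common effective library size), which matches the label of the line. Deviations from the group means were correlated with gene length across 8999 genes. Replicate 4 of DMSO-treated WT-ERG and of DMSO-treated P199L-ERG cells stood apart with the most negative values (r = -0.51 and -0.45). The other 22 libraries ran from -0.24 to 0.46. Replicate 1 of DMSO-treated P199L-ERG cells held the 0.46, so the sign and not the size of r sets the 2 libraries apart. Where a member's call changes without these libraries, the value is given beside it. Because RNA came from whole cultures, fewer cells of a type and less RNA per cell cannot be told apart.

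At the level of transcripts, the common beta chain *Csf2rb* led the receptors and *Flt3* was close to the limit of detection. Levels of different genes are compared here as CPM per kilobase of exon. In DMSO-treated BB cells *Csf2rb* stood at 69.8 ± 1.93 CPM per kb (SD, n = 4), *Csf2ra* at 48.5 ± 3.03, *Csf3r* at 45.6 ± 1.89 and *Kit* at 31.5 ± 0.688. A lower tier held *Csf2rb2* at 14.3 ± 0.834, *Csf1r* at 6.35 ± 0.537, *Il3ra* at 4.19 ± 0.42 and *Il6ra* at 3.45 ± 0.287 CPM per kb, and *Flt3* came last with 0.137 ± 0.0468. The libraries of *Csf2ra* and *Csf3r*, and of *Il3ra* and *Il6ra*, overlapped in that group, and all other neighbours in this order were separate. With the longest annotated transcript as the length, *Kit* moved ahead of *Csf3r* there, since the longest *Kit* transcript holds 5241 of its 8911 annotated exon bases.

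The mixture of receptor transcripts shifted with both the construct and the inhibitor, while *Csf2rb* kept its share. Of the summed CPM per kb of the 9 genes, *Csf2rb* held between 30.5% ± 0.67 and 31.6% ± 0.311 in all 6 groups. The share of *Csf2ra* was 21.7% ± 0.855 in DMSO-treated BB cells and 10.8% ± 0.581 in BRD3308-treated WT-ERG cells, whereas that of *Csf3r* was 20.4% ± 0.766 and 25.4% ± 0.579. *Csf2rb2* made up 4.27% ± 0.168 in DMSO-treated P199L-ERG cells and 10.2% ± 0.296 after BRD3308. The whole sum moved less, from 209.5 ± 11.7 CPM per kb in DMSO-treated P199L-ERG cells to 249.1 ± 1.89 in BRD3308-treated WT-ERG cells.

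**Figure D1:**
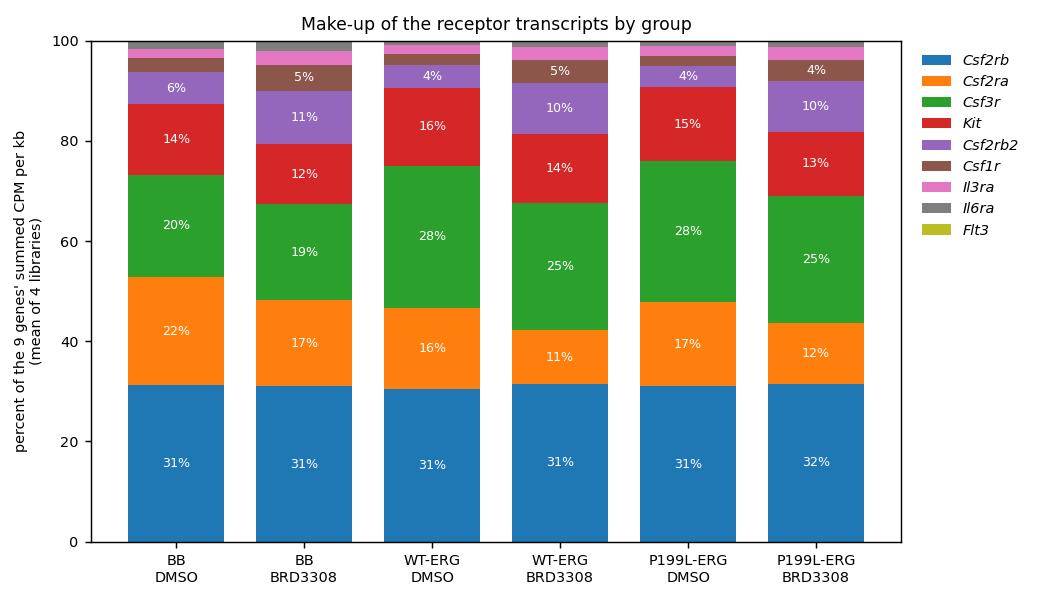
Stacked bars give each receptor gene's mean share (percent, 4 libraries per group) of the summed CPM per kb of the 9 genes in each group, with shares above 4% printed. *Csf2rb* (blue) keeps about the same share in all 6 groups, *Csf2ra* (orange) shrinks from 21.7% in DMSO-treated BB to 10.8% in BRD3308-treated WT-ERG cells, and *Flt3* is too small to see.

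Changes are given as log2 fold changes with their standard errors (SE) from an edgeR quasi-likelihood fit of all genes and libraries, and a gene rose, fell, or was higher or lower where its p value, adjusted by the Benjamini-Hochberg method over the 12963 genes, was under 0.05. BRD3308 raised 6 of the 9 receptor genes in BB cells, the 6 being *Flt3*, *Csf1r*, *Csf2rb*, *Csf2rb2*, *Il3ra* and *Il6ra*, and lowered *Kit* and *Csf2ra*. In WT-ERG cells and in P199L-ERG cells the 6 were raised too and *Csf2ra* alone fell. Over all tested genes, BRD3308 raised 24% and lowered 22% in BB, raised 24.7% and lowered 23.2% in WT-ERG, and raised 24.4% and lowered 24.1% in P199L-ERG cells. The median log2 change of the 9 genes was 0.36, 0.54 and 0.48 in BB, WT-ERG and P199L-ERG cells, beside medians of 0.0056, -0.0015 and -0.0062 over all tested genes.

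The ERG constructs split the receptors. In DMSO, WT-ERG cells had 3 receptor genes higher than BB (*Csf3r*, *Flt3* and *Kit*) and 4 lower (*Il6ra*, *Csf2rb2*, *Csf2ra* and *Csf1r*), beside 15.6% of all genes higher and 14.1% lower. P199L-ERG cells had 2 higher (*Csf3r* and *Flt3*) and the same 4 lower, beside 15.3% and 12.9% of all genes. Both comparisons share the BB libraries. Under BRD3308 the WT-ERG cells had 3 higher and 3 lower (background 10.4% and 10.7%), and the P199L-ERG cells 2 higher and 3 lower (8.12% and 8.81%), with *Csf2rb2* no longer among the genes called in either. P199L-ERG cells had 2 genes lower than WT-ERG in DMSO (*Kit* and *Csf2rb2*, background 2.45% lower and 2.23% higher) and only *Kit* lower under BRD3308 (2.09% lower and 1.31% higher), and none of the 9 was higher in either.

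**Figure D2:**
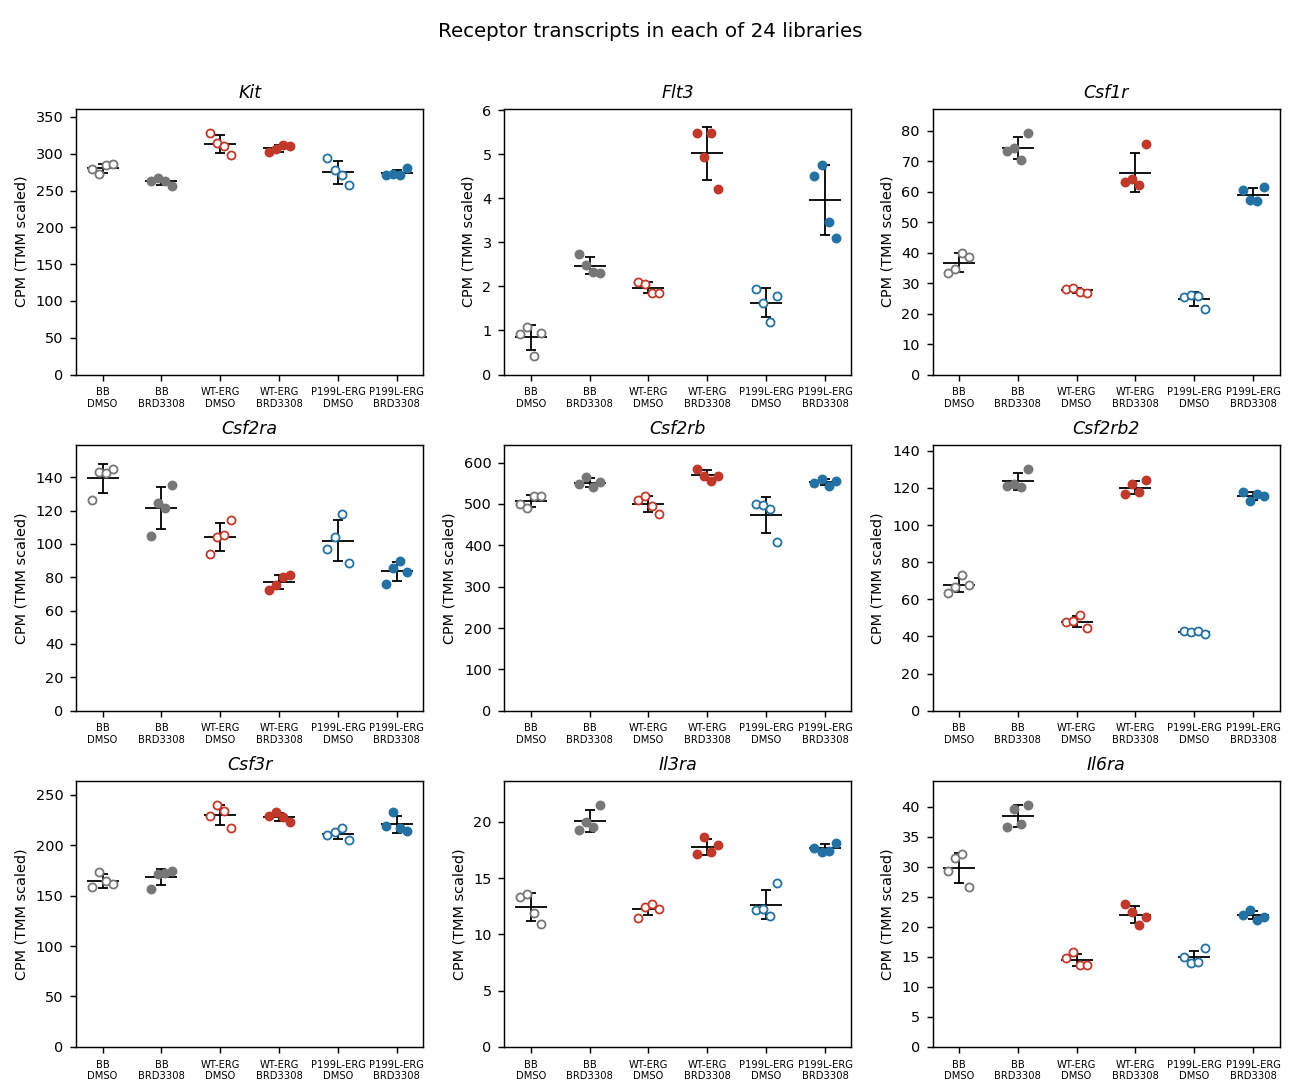
Each panel plots 1 receptor gene's CPM (vertical axis, linear, from 0) in the 24 libraries by group, with DMSO as open and BRD3308 as filled points. Bars mark the mean and SD of 4 libraries. Treated and untreated libraries of each line do not overlap for *Csf1r*, *Csf2rb2* and *Il6ra*, and all 16 ERG libraries lie above all 8 BB libraries for *Csf3r*. For *Kit*, WT-ERG lies above BB under both treatments, while P199L-ERG overlaps BB in DMSO and lies above it under BRD3308.

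ERG binds DNA at ETS sites, so the 250 bases before the RefSeq start of the 5 members that differed from BB in both ERG lines in DMSO and matched a RefSeq entry are shown, in the direction of the gene and from build GRCm38.p6. Capitals mark AGGAAG or its reverse complement, 1 of the spellings of an ETS core. *Csf3r* (chr4:126024409-126024658, plus strand) and *Flt3* (chr5:147400490-147400739, minus strand) were higher with ERG, and *Il6ra* (chr3:89913197-89913446), *Csf2ra* (chr19:61228419-61228668) and *Csf2rb2* (chr15:78305722-78305971), all on the minus strand, were lower.
Csf3r: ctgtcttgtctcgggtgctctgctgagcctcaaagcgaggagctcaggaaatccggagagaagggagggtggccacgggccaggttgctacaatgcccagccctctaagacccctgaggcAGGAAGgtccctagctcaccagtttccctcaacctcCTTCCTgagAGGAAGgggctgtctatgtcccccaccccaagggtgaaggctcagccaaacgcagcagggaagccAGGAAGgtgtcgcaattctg
Flt3: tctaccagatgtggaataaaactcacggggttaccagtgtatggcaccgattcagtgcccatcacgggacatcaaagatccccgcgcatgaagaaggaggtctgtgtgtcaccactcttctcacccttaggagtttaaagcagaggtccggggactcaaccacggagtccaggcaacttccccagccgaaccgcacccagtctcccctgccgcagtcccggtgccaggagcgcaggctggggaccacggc
Il6ra: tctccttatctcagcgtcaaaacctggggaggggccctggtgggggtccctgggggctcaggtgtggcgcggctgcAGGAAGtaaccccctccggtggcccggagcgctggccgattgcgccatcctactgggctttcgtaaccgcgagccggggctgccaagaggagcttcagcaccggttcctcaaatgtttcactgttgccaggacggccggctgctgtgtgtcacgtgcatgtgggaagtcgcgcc
Csf2ra: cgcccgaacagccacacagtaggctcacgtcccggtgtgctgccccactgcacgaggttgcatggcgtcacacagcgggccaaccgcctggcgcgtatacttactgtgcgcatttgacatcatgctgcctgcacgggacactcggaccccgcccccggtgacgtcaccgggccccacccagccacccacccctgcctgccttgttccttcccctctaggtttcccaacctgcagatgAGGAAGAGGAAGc
Csf2rb2: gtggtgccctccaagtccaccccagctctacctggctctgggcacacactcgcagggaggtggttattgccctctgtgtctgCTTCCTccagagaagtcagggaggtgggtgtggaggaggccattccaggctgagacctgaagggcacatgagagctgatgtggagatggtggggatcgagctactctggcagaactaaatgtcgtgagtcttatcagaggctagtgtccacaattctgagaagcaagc
Of 5 spellings searched on both strands, which overlap one another, GGAA was in the windows of all 7 members matched to RefSeq entries and in 93.4% of the 32851 windows of all genes. AGGAAG was in 6 of 7 (29.5% of all windows), GGAAGT in 3 (19.7%), and neither CGGAAG (13.6%) nor CCGGAA (12%) was in any. *Csf3r* held AGGAAG 4 times, at 130, 94, 85 and 20 bases before its RefSeq start, and *Flt3* was the member without it. GENCODE, the source of the gene positions below, places the starts of *Csf3r* and *Csf2ra* inside the windows shown (126024550 and 61228429). By that annotation the *Csf3r* copies at 94, 85 and 20 bases lie within the gene, and those of *Csf2ra* lie within it or across its start. Of the windows counted but not shown, those of *Kit* and *Il3ra* also hold the GENCODE start (75574916 and 14346275). The *Il3ra* copy, 140 bases before its RefSeq start, then lies within the gene, and the *Kit* copy lies before its gene. A match in these letters is a description and not a measured site: *Csf3r*, higher with ERG, and *Il6ra*, *Csf2ra* and *Csf2rb2*, lower with ERG, held AGGAAG, and *Flt3*, higher with ERG, did not.

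The receptor tyrosine kinases moved in different ways. *Kit*, the SCF receptor, which the SCF of the medium engages in these cells (ENSMUSG00000005672, chr5:75574916-75656722), was abundant in every library. DMSO-treated BB libraries held 279.7, 272.1, 284.5 and 285.6 CPM and BRD3308-treated BB libraries 262.5, 267.6, 262.7 and 256.7. WT-ERG libraries held 328.5, 315.2, 310.5 and 298.9 CPM in DMSO and 301.8, 306.1, 312 and 310 after BRD3308. P199L-ERG libraries held 294.3, 277.5, 270.9 and 257.1 CPM in DMSO and 271.1, 272.5, 271.3 and 280.6 after BRD3308. Every WT-ERG library was thus above every BB library, while the P199L-ERG libraries spanned the BB values in DMSO. Under BRD3308 every P199L-ERG library was above every BB library of that treatment.

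WT-ERG cells exceeded BB cells in *Kit* by a log2 fold change of 0.16 (SE 0.0356, adjusted p = 0.000908) in DMSO and 0.23 (SE 0.0357, adjusted p = 1.62e-05) under BRD3308. P199L-ERG cells had less than WT-ERG cells, by -0.19 (SE 0.0356, adjusted p = 0.00113) and -0.17 (SE 0.0356, adjusted p = 0.00439). In a fit of the DMSO groups of both ERG lines alone, the first of these did not pass (adjusted p = 0.139). Between P199L-ERG and BB cells the difference was -0.03 (interval -0.101 to 0.0451) in DMSO and 0.06 (interval -0.0116 to 0.135) under BRD3308, which did not pass. BRD3308 lowered *Kit* in BB cells by -0.10 (SE 0.0358, adjusted p = 0.0298). That call was lost when any of 5 BB libraries was left out (replicates 3 and 4 of DMSO, 1, 3 and 4 of BRD3308, -0.11 to -0.09 over all libraries left out) and without the filter on low counts (adjusted p = 0.107). The response was -0.03 (interval -0.0997 to 0.046) in WT-ERG and -0.0058 (interval -0.079 to 0.0673) in P199L-ERG cells. Mast cells and basophils also carry KIT, and a list of 6 of their markers moved with the constructs in DMSO. Of its 4 tested genes, 3 were higher in WT-ERG and 4 in P199L-ERG than in BB cells, beside 15.6% and 15.3% of all genes. *Prss34*, 1 of the 4, had enough reads to be tested through the ERG groups alone. It held 2 to 3 counts per DMSO-treated BB and 13 to 21 per DMSO-treated WT-ERG library, so its place in these counts is a description. The list's summed level was 117.4 to 130.1 CPM in BB, 284.1 to 311.8 in WT-ERG and 215.5 to 261.3 in P199L-ERG cells in DMSO, and 56.4 to 64.7, 132.8 to 147 and 101.3 to 109.7 CPM after BRD3308, while *Fcer1a* and *Gzmb* were at 0 counts in every library. With BRD3308, 1 of the list's 4 tested genes fell and 0 rose in each line. Over all tested genes, 22% to 24.1% fell and 24% to 24.7% rose. The fall of the sum in WT-ERG cells lay in *Cpa3*, at 212 to 235.8 CPM in DMSO and 60.7 to 68.8 after BRD3308. *Mcpt8* held 63.5 to 75 and 63.3 to 69.6 CPM. The list's part in the *Kit* values was not tested.

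*Flt3*, the receptor for FLT3 ligand on lymphoid-primed and dendritic precursors (ENSMUSG00000042817, chr5:147330741-147400489), rested on 6 to 85 counts per library. BB libraries held 0.929, 1.08, 0.422 and 0.945 CPM in DMSO and 2.73, 2.49, 2.33 and 2.31 after BRD3308. WT-ERG libraries held 2.103, 2.06, 1.86 and 1.86 CPM in DMSO and 5.48, 4.92, 5.47 and 4.2 after BRD3308. P199L-ERG libraries held 1.93, 1.63, 1.18 and 1.78 CPM in DMSO and 4.51, 4.75, 3.46 and 3.103 after BRD3308. Treated and untreated libraries of each line did not overlap, nor did WT-ERG or P199L-ERG overlap BB under either treatment. BRD3308 raised *Flt3* on the log2 scale by 1.54 (SE 0.225, adjusted p = 2.27e-06) in BB, 1.35 (SE 0.163, adjusted p = 9.3e-08) in WT-ERG and 1.27 (SE 0.175, adjusted p = 8.25e-07) in P199L-ERG cells. In DMSO it was higher than in BB by 1.21 (SE 0.234, adjusted p = 0.000185) with WT-ERG and by 0.94 (SE 0.243, adjusted p = 0.00425) with P199L-ERG, and under BRD3308 by 1.03 (SE 0.156, adjusted p = 1.12e-05) and 0.68 (SE 0.162, adjusted p = 0.0032). In a list of 6 dendritic cell markers *Itgax* alone had enough reads to be tested, and it rose with BRD3308 in each line. The summed level of the list was 0.317 to 0.709 CPM in BB, 0.841 to 1.13 in WT-ERG and 0.834 to 1.07 in P199L-ERG cells in DMSO and 3.32 to 3.88, 4.001 to 4.81 and 2.97 to 4.19 CPM after BRD3308. *Cd209a* of that list was at 0 counts in every library, and the list's part in the *Flt3* values was not tested.

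*Csf1r*, the M-CSF receptor of monocytes and macrophages (ENSMUSG00000024621, chr18:61100598-61132149), rose with the inhibitor in all lines, and ERG lines started from lower levels. In BB cells the DMSO libraries held 33.4, 34.8, 40.01 and 38.4 CPM and the BRD3308 libraries 73.3, 74.4, 70.6 and 79.4. In WT-ERG cells these were 28.1, 28.5, 27.2 and 26.9 CPM against 63.2, 64.1, 62.4 and 75.7. The P199L-ERG libraries held 25.5, 26.2, 25.9 and 21.5 CPM in DMSO and 60.6, 57.4, 56.9 and 61.5 after BRD3308. No treated library of any line overlapped an untreated one, and in DMSO the 3 lines were separate, with BB highest.

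BRD3308 raised *Csf1r* 2.03-fold in BB (log2 1.02, SE 0.0647, adjusted p = 2.52e-13), 2.39-fold in WT-ERG (log2 1.26, SE 0.0668, adjusted p = 6.55e-15) and 2.38-fold in P199L-ERG cells (log2 1.25, SE 0.0678, adjusted p = 1.03e-14). In DMSO it was lower than in BB by a log2 fold change of -0.40 (SE 0.0702, adjusted p = 5e-05) with WT-ERG and -0.56 (SE 0.071, adjusted p = 6.2e-07) with P199L-ERG. Under BRD3308 the differences were -0.17 (SE 0.0611, adjusted p = 0.0499) and -0.33 (SE 0.0615, adjusted p = 0.000233). The WT-ERG value under BRD3308 lies at the threshold. It did not pass without scaling factors (adjusted p = 0.0849) or when any of 13 of the 24 libraries was left out, with a log2 fold change of -0.25 to -0.15 over all libraries left out. Exons of *Hmgxb3* on the opposite strand cover 15.1% of the *Csf1r* exon bases, and whether the counting used the strand is not given in the sources used here. *Hmgxb3* did not pass in any of the 12 comparisons, and its log2 fold change with BRD3308 was -0.27, -0.18 and 0.04 in BB, WT-ERG and P199L-ERG cells.

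**Figure D3:**
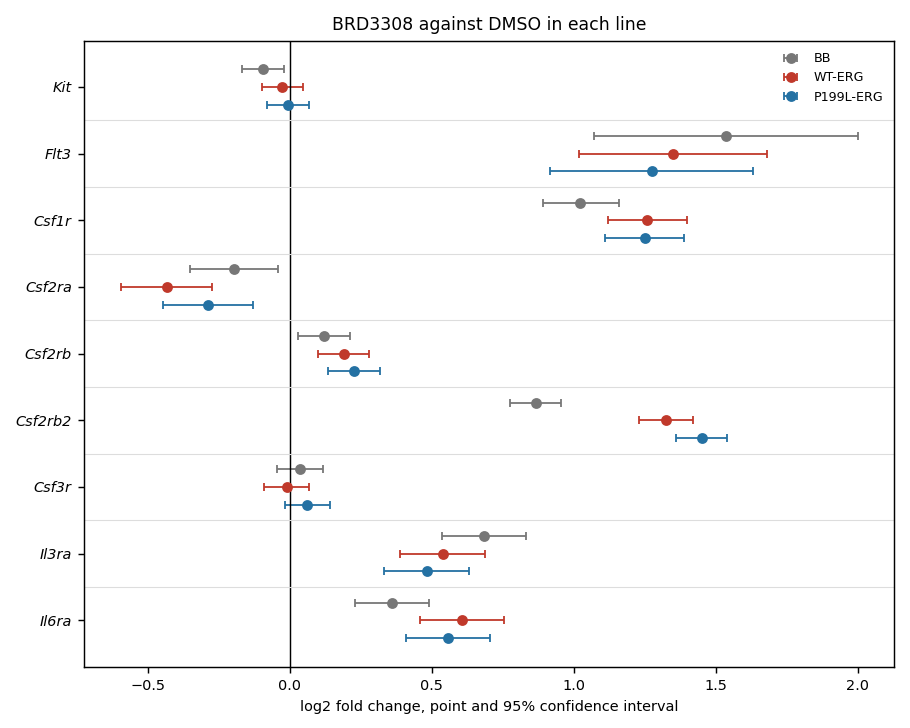
Points give the log2 fold change of BRD3308 against DMSO (horizontal axis) for each receptor gene in BB (grey), WT-ERG (red) and P199L-ERG cells (blue), with 95% confidence intervals over 4 libraries per group. *Csf2rb2*, *Csf1r* and *Flt3* lie between 0.87 and 1.54 in each line, *Csf2ra* lies below 0, and *Csf2rb2* is the gene whose interval in BB cells is clear of the intervals of both ERG lines.

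The subunits of the GM-CSF and IL-3 receptors went apart. *Csf2ra*, the GM-CSF-binding alpha chain (ENSMUSG00000059326, chr19:61223957-61228429), was the receptor gene that fell with the inhibitor in every line. BB libraries held 126.3, 143.1, 142.7 and 145 CPM in DMSO and 104.6, 124.7, 121.5 and 135.3 after BRD3308. WT-ERG libraries held 93.9, 103.9, 105.2 and 114.4 CPM in DMSO and 72.2, 75.1, 80.4 and 81.3 after BRD3308. P199L-ERG libraries held 97.2, 104.4, 118 and 88.5 CPM in DMSO and 75.8, 85.5, 89.9 and 82.9 after BRD3308. Treated and untreated libraries overlapped in BB and P199L-ERG cells and were separate in WT-ERG cells.

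On the log2 scale *Csf2ra* fell by 0.20 (SE 0.0756, adjusted p = 0.0337) in BB, fell by 0.43 (SE 0.0783, adjusted p = 4.29e-05) in WT-ERG and fell by 0.29 (SE 0.0778, adjusted p = 0.00303) in P199L-ERG cells. The call in BB cells was lost when any of 5 BB libraries was left out (replicates 2, 3 and 4 of DMSO, 1 and 3 of BRD3308), with a log2 fold change of -0.26 to -0.14 over all libraries left out. Against BB it was lower by -0.42 (SE 0.0761, adjusted p = 9.02e-05) with WT-ERG and -0.45 (SE 0.0761, adjusted p = 5.06e-05) with P199L-ERG in DMSO, and by -0.65 (SE 0.0779, adjusted p = 2.3e-07) and -0.54 (SE 0.0773, adjusted p = 7.29e-06) under BRD3308. BRD3308-treated WT-ERG cells thus held 77.3 ± 4.35 CPM of this alpha chain (SD, n = 4) and DMSO-treated BB cells 139.3 ± 8.69.

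*Il3ra*, the IL-3-binding alpha chain (ENSMUSG00000068758, chr14:14346275-14356011), rose instead. It held 10.9 to 13.6 CPM in DMSO-treated BB libraries, 11.5 to 12.7 in WT-ERG and 11.6 to 14.5 in P199L-ERG libraries, which overlapped. After BRD3308 the ranges were 19.3 to 21.5, 17.2 to 18.6 and 17.3 to 18.1 CPM, all above the untreated libraries. The log2 response was 0.68 (SE 0.0725, adjusted p = 9.41e-09) in BB, 0.54 (SE 0.0731, adjusted p = 6.66e-07) in WT-ERG and 0.48 (SE 0.0724, adjusted p = 3.44e-06) in P199L-ERG cells. In DMSO the difference from BB was -0.03 (interval -0.186 to 0.13) with WT-ERG and 0.02 (interval -0.138 to 0.176) with P199L-ERG, and neither passed. Under BRD3308 both ERG lines lay below BB without passing (-0.17, SE 0.0687, adjusted p = 0.0724, and -0.18, SE 0.0685, adjusted p = 0.0654). When the replicate number entered the model as a block the adjusted p values were 0.0436 and 0.0355, and without the 2 libraries that stood apart they were 0.0392 and 0.0336, so that both passed in either case.

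*Csf2rb*, the beta chain shared by the GM-CSF, IL-3 and IL-5 receptors (ENSMUSG00000071713, chr15:78325752-78353847), had the smallest rise of the 6 genes that rose. It held 491.2 to 519.4 CPM in DMSO-treated BB, 475.3 to 520.3 in WT-ERG and 407.6 to 499 in P199L-ERG libraries, and 540.2 to 565.1, 555.7 to 584.8 and 544.4 to 560.7 CPM after BRD3308. Treated libraries were above untreated ones in every line, by a log2 fold change of 0.12 (SE 0.0446, adjusted p = 0.0284) in BB, 0.19 (SE 0.0446, adjusted p = 0.000899) in WT-ERG and 0.22 (SE 0.0446, adjusted p = 0.000139) in P199L-ERG cells. The call in BB cells was lost when any of 13 libraries was left out (0.10 to 0.13 over all libraries left out) and without scaling factors (adjusted p = 0.0749). Between constructs in DMSO *Csf2rb* did not pass, with -0.02 (interval -0.114 to 0.069) for WT-ERG against BB and -0.10 (interval -0.193 to -0.0094) for P199L-ERG against BB (adjusted p = 0.0928). In DMSO-treated P199L-ERG cells replicate 4 stood at 407.6 CPM against 488.5 to 499 in the other 3 libraries, and over all libraries left out the P199L-ERG value ran from -0.13 to -0.04.

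*Csf2rb2*, its IL-3-specific paralog, lies next to it on the opposite strand (ENSMUSG00000071714, chr15:78282507-78305721) and changed far more. In BB cells it stood at 63.5, 66.7, 72.98 and 67.8 CPM in DMSO and 121.2, 122.1, 120.5 and 130.2 after BRD3308. WT-ERG libraries held 47.7, 48.3, 51.3 and 44.3 CPM in DMSO and 116.5, 122.2, 117.8 and 124.1 after BRD3308. P199L-ERG libraries held 42.9, 42.2, 43.04 and 41.1 CPM in DMSO and 117.7, 113, 116.6 and 115.6 after BRD3308. The lines were separate from one another in DMSO, in the order BB, WT-ERG, P199L-ERG, and under BRD3308 the WT-ERG libraries overlapped those of both other lines.

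*Csf2rb2* rose 1.82-fold in BB (log2 0.87, SE 0.0436, adjusted p = 1.86e-15), 2.503-fold in WT-ERG (log2 1.32, SE 0.0448, adjusted p = 2.94e-19) and 2.73-fold in P199L-ERG cells (log2 1.45, SE 0.0453, adjusted p = 4.34e-20). In DMSO it was lower than in BB cells by -0.50 (SE 0.0462, adjusted p = 1.39e-09) with WT-ERG and -0.68 (SE 0.0467, adjusted p = 4.49e-12) with P199L-ERG, and lower in P199L-ERG than in WT-ERG by -0.18 (SE 0.0478, adjusted p = 0.0229). Under BRD3308 the differences from BB were -0.04 (interval -0.125 to 0.0466) and -0.09 (interval -0.18 to -0.00737), with adjusted p = 0.581 and 0.137, and neither passed. The difference between the ERG lines in DMSO was lost in a fit of those groups alone (adjusted p = 0.216), without the filter on low counts (adjusted p = 0.058), and when replicate 2 or 3 of WT-ERG or replicate 2 or 4 of P199L-ERG in DMSO was left out (-0.21 to -0.15 over all libraries left out). Of windows of 60 bases in its exons, 14.6% also occur in another gene, 707 of 710 in *Csf2rb*, so the 2 rows may share reads. With both rows summed, the log2 response to BRD3308 was 0.23 (SE 0.0428, adjusted p = 6.12e-05) in BB, 0.33 (SE 0.0428, adjusted p = 2.72e-07) in WT-ERG and 0.38 (SE 0.0428, adjusted p = 3.71e-08) in P199L-ERG cells.

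*Csf2rb2* was the receptor gene whose response to BRD3308 differed between lines. Its log2 response was larger than in BB cells by 0.46 (SE 0.0624, adjusted p = 3.53e-05) in WT-ERG (interval 0.329 to 0.585) and by 0.58 (SE 0.0628, adjusted p = 1.23e-06) in P199L-ERG cells (interval 0.456 to 0.713). Among all tested genes, 0.825% had a larger and 0.903% a smaller response with WT-ERG, and 0.455% and 0.594% with P199L-ERG. The call held with each of the 24 libraries left out in turn. For the summed row of *Csf2rb* and *Csf2rb2* the differences were 0.10 (SE 0.0604, adjusted p = 0.615) and 0.14 (SE 0.0604, adjusted p = 0.31) and did not pass. Between P199L-ERG and WT-ERG cells the *Csf2rb2* responses differed by 0.13 (interval -0.00307 to 0.258), with adjusted p = 0.852. There edgeR called 0 of the 9 genes, 0 at an unadjusted p under 0.05, and DESeq2 also called 0, beside 0.0231% of all genes larger and 0.0231% smaller. The other 8 genes did not pass in either comparison with BB. With WT-ERG the response differed by 0.24 (interval 0.0441 to 0.426) for *Csf1r* (adjusted p = 0.31), by 0.25 (interval 0.0492 to 0.442) for *Il6ra* (adjusted p = 0.297) and by -0.24 (interval -0.459 to -0.0128) for *Csf2ra* (adjusted p = 0.43).

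*Csf3r*, the G-CSF receptor that drives neutrophil output (ENSMUSG00000028859, chr4:126024550-126044440), was higher with ERG, and no response to the inhibitor passed. BB libraries held 158.1, 173.8, 164.9 and 161.1 CPM in DMSO and 157, 171.3, 172.8 and 174 after BRD3308. WT-ERG libraries held 229.2, 239.8, 234.1 and 216.8 CPM in DMSO and 228.8, 232.8, 228.5 and 222.7 after BRD3308. P199L-ERG libraries held 210.1, 213.2, 216.7 and 205.5 CPM in DMSO and 218.9, 232.6, 216.8 and 214.3 after BRD3308. All 16 libraries with an ERG construct were above all 8 BB libraries.

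*Csf3r* exceeded its BB level by 0.48 (SE 0.0396, adjusted p = 1.05e-10) with WT-ERG and 0.36 (SE 0.0396, adjusted p = 5.22e-08) with P199L-ERG in DMSO, and by 0.44 (SE 0.0395, adjusted p = 1.37e-09) and 0.39 (SE 0.0395, adjusted p = 2.12e-08) under BRD3308, on the log2 scale. The response to BRD3308 was 0.04 (interval -0.0454 to 0.118) in BB, -0.01 (interval -0.0914 to 0.0687) in WT-ERG and 0.06 (interval -0.0182 to 0.142) in P199L-ERG cells. Between P199L-ERG and WT-ERG cells in DMSO the difference was -0.12 (SE 0.0391, adjusted p = 0.0765). It passed with a term for the replicate block (adjusted p = 0.0136) and without the 2 libraries that stood apart (adjusted p = 0.036). Of its windows of 60 bases 6.38% were not unique.

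*Il6ra*, the IL-6-binding chain (ENSMUSG00000027947, chr3:89864059-89913196), had the largest drop with ERG among the 9 genes in DMSO. BB libraries held 29.4, 31.4, 32.1 and 26.6 CPM in DMSO and 36.6, 39.7, 37.1 and 40.3 after BRD3308. WT-ERG libraries held 14.7, 15.8, 13.6 and 13.7 CPM in DMSO and 23.7, 22.4, 20.3 and 21.6 after BRD3308. P199L-ERG libraries held 14.9, 14.04, 14.2 and 16.5 CPM in DMSO and 21.9, 22.8, 21.2 and 21.6 after BRD3308. Each ERG library was below each BB library of either treatment, and in each line the treated libraries were above the untreated ones. Against BB the log2 fold change was -1.05 (SE 0.0701, adjusted p = 1.42e-12) with WT-ERG and -1.01 (SE 0.0697, adjusted p = 4.99e-12) with P199L-ERG in DMSO, and -0.80 (SE 0.0646, adjusted p = 1.37e-10) and -0.81 (SE 0.0645, adjusted p = 1.54e-10) under BRD3308. The response to BRD3308 was 0.36 (SE 0.0629, adjusted p = 2.84e-05) in BB, 0.61 (SE 0.072, adjusted p = 7.4e-08) in WT-ERG and 0.56 (SE 0.0715, adjusted p = 2.89e-07) in P199L-ERG cells. BRD3308-treated WT-ERG cells, at 22.01 ± 1.45 CPM, remained below DMSO-treated BB cells, at 29.8 ± 2.48 CPM (SD, n = 4).

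**Figure D4:**
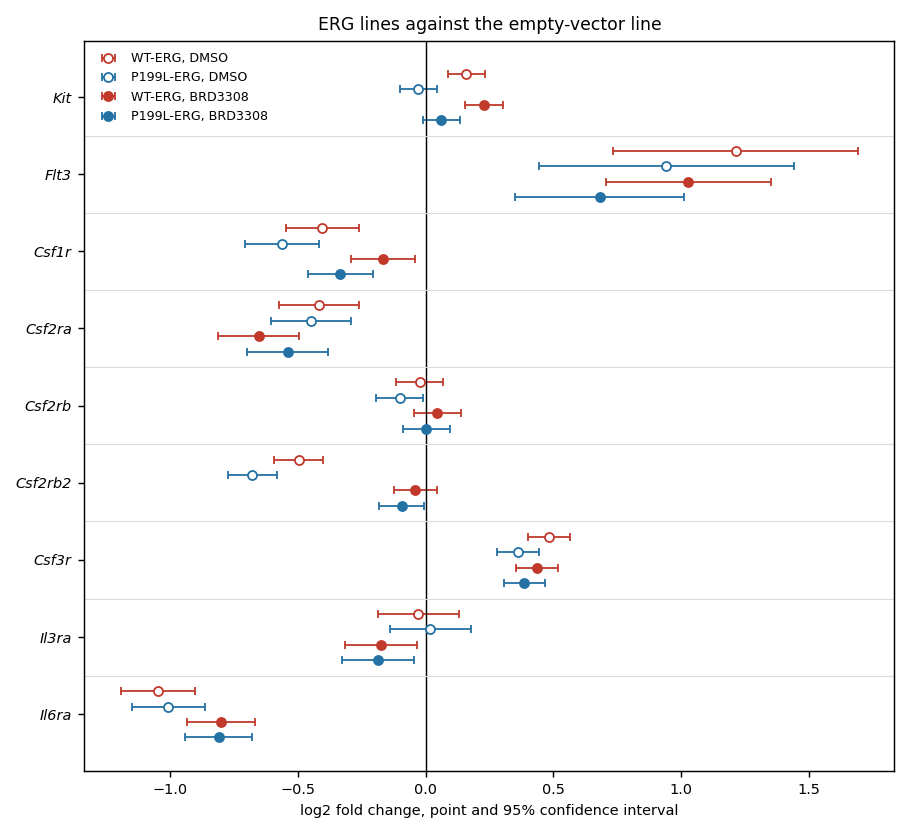
Points give the log2 fold change of each ERG line against BB (horizontal axis) for each receptor gene, with 95% confidence intervals, WT-ERG in red and P199L-ERG in blue, DMSO as open and BRD3308 as filled points. *Il6ra* and *Csf2ra* lie below 0 and *Csf3r* and *Flt3* above 0 under both treatments, while *Csf2rb2* moves from -0.50 and -0.68 in DMSO to -0.04 and -0.09 under BRD3308.

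The ligands of these receptors were mostly at or near 0 in the cultures. Of 8 ligand genes, *Kitl* (SCF), *Il34*, *Csf2* (GM-CSF) and *Il3* had 0 counts in all 24 libraries, *Csf3* (G-CSF) had at most 2 counts and *Il6* at most 1. *Flt3l* held group means of 4.03 to 5.74 CPM and its response to BRD3308 in BB cells was 0.28 (SE 0.118, adjusted p = 0.057), which did not pass. *Csf1*, which encodes M-CSF, averaged 10.9 ± 1.6 CPM in BB, 7.48 ± 0.488 in WT-ERG and 7.87 ± 1.38 in P199L-ERG cells under DMSO (SD, n = 4). After BRD3308 it stood at 41.5 ± 2.79, 26.4 ± 1.38 and 30.04 ± 1.69 CPM. Its log2 response was 1.91 (SE 0.0887, adjusted p = 3.2e-16), 1.82 (SE 0.0975, adjusted p = 7.91e-15) and 1.93 (SE 0.0948, adjusted p = 1.28e-15), and it was lower with WT-ERG than in BB cells in DMSO by -0.56 (SE 0.11, adjusted p = 0.000217). The ligand and the receptor of the M-CSF pair therefore both rose in all lines.

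**Figure D5:**
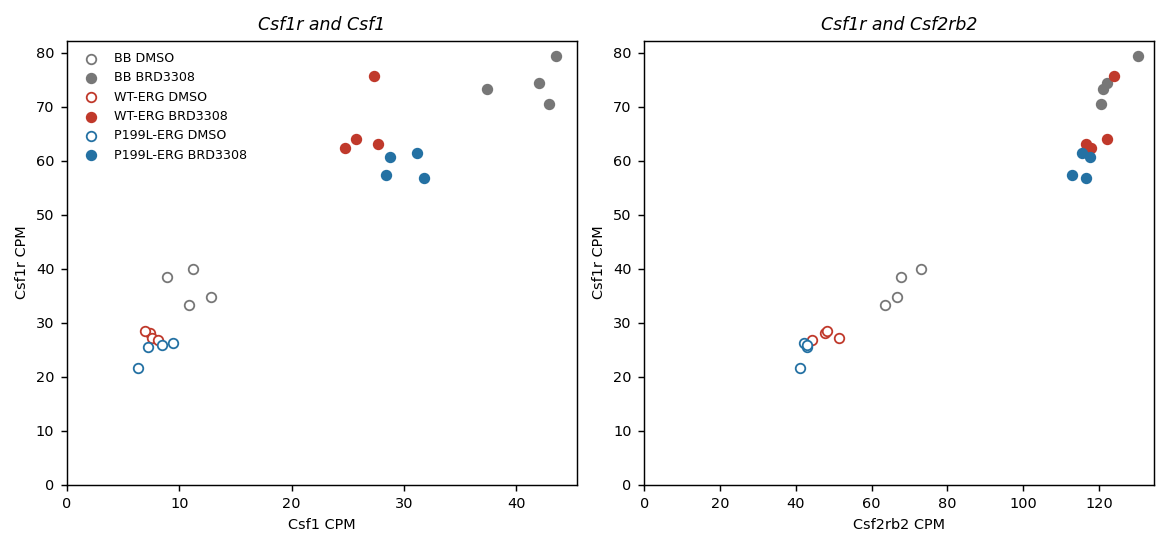
Each point is 1 of the 24 libraries, with *Csf1r* CPM on the vertical axis against *Csf1* CPM (left) and *Csf2rb2* CPM (right), DMSO open and BRD3308 filled, BB grey, WT-ERG red and P199L-ERG blue. Treated libraries lie at the upper right in both panels, at 56.8 CPM of *Csf1r* or more, and untreated ones at the lower left, at 40.01 CPM or less.

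Below the receptors, the changes were smaller. They were mixed with BRD3308, and those called with ERG in DMSO were all toward lower levels. Of 24 kinases and adaptors, all tested, 6 rose and 7 fell with BRD3308 in WT-ERG cells, beside 24.7% of all tested genes raised and 23.2% lowered, so these counts are near the background. With WT-ERG against BB in DMSO 7 were lower and 0 higher, beside 14.1% of all genes lower and 15.6% higher. With P199L-ERG 8 were lower and 0 higher, beside 12.9% and 15.3% of all genes. *Mapk3*, encoding the kinase ERK1, rose by 0.32 (SE 0.0427, adjusted p = 5.93e-07) after the inhibitor and was lower with WT-ERG by -0.44 (SE 0.0427, adjusted p = 3.45e-09). *Lyn*, a SRC-family kinase, rose by 0.27 (SE 0.0388, adjusted p = 2.11e-06) and *Fgr*, another, by 0.29 (SE 0.0434, adjusted p = 2.48e-06), while the kinase *Fes* fell by 0.33 (SE 0.0484, adjusted p = 2.13e-06). With WT-ERG against BB in DMSO, *Fes* was lower by -0.23 (SE 0.048, adjusted p = 0.000435) and *Lyn* by -0.17 (SE 0.039, adjusted p = 0.000947).

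Among inhibitors of receptor signalling, 14 of 15 genes were tested. In DMSO 9 were lower and 1 higher with WT-ERG than with BB (all genes 14.1% and 15.6%), and 7 were lower and 1 higher with P199L-ERG (12.9% and 15.3%). Under BRD3308 the counts were 7 lower and 2 higher with WT-ERG (10.7% and 10.4%) and 4 lower and 2 higher with P199L-ERG (8.81% and 8.12%). BRD3308 raised 5 and lowered 3 in WT-ERG cells (24.7% and 23.2%). With WT-ERG in DMSO, *Sh2b3*, the adaptor LNK that restrains KIT and JAK2 signalling, was lower by -0.36 (SE 0.0549, adjusted p = 7.09e-06), *Ptprc* (CD45) by -0.22 (SE 0.033, adjusted p = 7.29e-06) and *Ptpn6* (SHP-1) by -0.20 (SE 0.0325, adjusted p = 1.81e-05). *Spry1* was the gene that was higher, by 1.35 (SE 0.309, adjusted p = 0.00122), on 14 to 33 counts per WT-ERG library against 5 to 16 in BB. After the inhibitor, WT-ERG cells had more *Cish*, a STAT5 target that feeds back on cytokine receptors, by 0.67 (SE 0.105, adjusted p = 5.56e-06), and more *Ptprc* by 0.38 (SE 0.0329, adjusted p = 1.73e-10), while *Spry2* fell by 0.65 (SE 0.0982, adjusted p = 3.65e-06) and *Ptpn6* fell by 0.20 (SE 0.0326, adjusted p = 9.36e-06).

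Of a list of 30 other receptors 23 were tested. BRD3308 raised 13 and lowered 0 in WT-ERG cells (all genes 24.7% and 23.2%), raised 11 and lowered 2 in BB (24% and 22%), and raised 11 and lowered 1 in P199L-ERG cells (24.4% and 24.1%). WT-ERG cells had 6 higher and 6 lower than BB in DMSO (15.6% and 14.1%). Among the 6 higher, *Il6st*, *Pdgfrb* and *Il18r1* had enough reads to be tested through the ERG groups alone. *Il13ra1*, among the 6 lower and among those raised by BRD3308 in BB and WT-ERG cells, had enough through BRD3308-treated BB cells alone. *Epor*, among those raised in each line, had enough only with the BRD3308-treated libraries. It held 2 to 13 counts per DMSO-treated and 9 to 24 per BRD3308-treated library. The places of these genes in the counts are a description. In WT-ERG cells *Tnfrsf1b*, a TNF receptor, rose by 0.74 (SE 0.0377, adjusted p = 2.53e-15), *Il2rg*, the common gamma chain, by 0.53 (SE 0.0425, adjusted p = 4.21e-11), *Tgfbr2* by 0.39 (SE 0.0455, adjusted p = 4.59e-08) and the decoy receptor *Il1r2* by 0.72 (SE 0.0864, adjusted p = 8.39e-08). *Il1r2* was also higher with WT-ERG than with BB in DMSO, by 0.94 (SE 0.0972, adjusted p = 9.97e-09), and *Il17ra*, an IL-17 receptor chain, was lower, by -0.41 (SE 0.0497, adjusted p = 1.93e-07). With BRD3308 *Il17ra* fell by 0.30 (SE 0.0494, adjusted p = 1.35e-05) in BB cells and had a log2 fold change of -0.03 (SE 0.0506, adjusted p = 0.706) in WT-ERG cells, which did not pass, and these differed by 0.27 (SE 0.0707, adjusted p = 0.0409). *Il2rg* rose by 0.67 (SE 0.0425, adjusted p = 2.82e-13) in BB and by 0.43 (SE 0.0421, adjusted p = 2.06e-09) in P199L-ERG cells, a difference of -0.24 (SE 0.0599, adjusted p = 0.046).

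*Il6st*, the signalling partner of IL6RA, was barely detected in BB cells, while *Il6ra* was higher there. DMSO libraries held 1, 1, 1 and 0 counts of *Il6st* in BB, 28, 25, 29 and 8 in WT-ERG and 17, 12, 9 and 9 in P199L-ERG cells. *Pdgfrb*, a receptor tyrosine kinase of the KIT family, had 0, 1, 2 and 1 counts in DMSO-treated BB and 9, 17, 27 and 16 in WT-ERG libraries. Since both genes passed the filter on low counts only through groups where they were higher, their values are a description, with no test or fold.

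Among 5 proteases that shed receptors, 4 were tested. In response to the inhibitor *Adam8* rose by 1.07 (SE 0.085, adjusted p = 3.07e-11) in WT-ERG and by 2.47 (SE 0.108, adjusted p = 9.87e-17) in BB cells, and these differed by -1.39 (SE 0.141, adjusted p = 3.58e-07). In DMSO it was already higher in WT-ERG, at 40.5, 48, 37.1 and 34.6 CPM against 7.22, 9.703, 10.8 and 8.11 in BB libraries (log2 2.16, SE 0.11, adjusted p = 3.82e-15). *Adam17*, which sheds IL6RA and CSF1R, rose by 0.25 (SE 0.0387, adjusted p = 3.98e-06) in WT-ERG cells and was higher with WT-ERG than with BB in DMSO by 0.22 (SE 0.0394, adjusted p = 7.02e-05), as was *Adam10* by 0.19 (SE 0.0481, adjusted p = 0.00267).

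Of 20 transcription factors known to act on receptor genes, 18 were tested, and 4 rose and 4 fell with BRD3308 in WT-ERG cells, near the 24.7% raised and 23.2% lowered over all tested genes. *Irf8*, a factor of monocyte and dendritic cell development, rose from 5.05 to 25.2 CPM (log2 2.32, SE 0.0809, adjusted p = 5.33e-19). *Mitf* rose by 0.98 (SE 0.131, adjusted p = 5.28e-07), *Lmo2* fell by 0.43 (SE 0.0345, adjusted p = 4.5e-11) and the granulocyte factor *Cebpe* fell by 0.43 (SE 0.0426, adjusted p = 2.53e-09). With WT-ERG against BB in DMSO, *Gata2* was higher by 1.57 (SE 0.1, adjusted p = 5.52e-13), *Lmo2* by 0.68 (SE 0.0349, adjusted p = 4.73e-15) and *Cebpa* by 0.41 (SE 0.0319, adjusted p = 3.74e-11). *Ets1*, an ETS factor like ERG, was lower by -2.01 (SE 0.261, adjusted p = 6.44e-07), on 3 to 13 counts per WT-ERG library against 29 to 41 in BB.

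Across the 24 libraries the receptor genes fell into patterns, given here as Pearson's r of log2 CPM. These are descriptions, since the libraries share constructs and treatments, and the most alike gene was sought among 8993 genes. *Csf1r* and *Csf2rb2* ran almost together (r = 0.987), and both were most like *Mpeg1*, a macrophage gene (r = 0.993 for *Csf1r* and 0.993 for *Csf2rb2*), followed by *Zeb2* for *Csf1r* (0.988) and *Flt1* for *Csf2rb2* (0.985). *Il3ra* ran with both (0.893 and 0.891) and was most like *Cisd1* (0.967) and *Bmx* (0.962). *Csf3r* ran against *Il6ra* (-0.765) and *Csf2ra* (-0.752). It was most like *Serpina3g* (0.963) and *Ecm1* (0.956), whereas *Il6ra* was most like *Glul* (0.973) and *Laptm5* (0.968), and *Csf2ra* like *Sh2b3* (0.925) and *Klhl22* (0.918). *Flt3* ran against *Csf2ra* (-0.845) and was most like *Krt80* (0.956) and *Hdhd5* (0.953). *Csf2rb* was most like *Abhd2* (0.955) and *Mbnl2* (0.942), and *Kit* like *Ahctf1* (0.898) and *Dcaf8* (0.896).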

How the data were processed

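RNA sequencing of 24 libraries was used, 4 for each combination of construct and treatment. The authors deposited raw counts per mouse gene: reads were trimmed and aligned with STAR to GRCm38 and counted with HTSeq per the labels, with versions, annotation and strand setting not given in the sources used here. Counts were tested as deposited with edgeR 4.0.16 (R 4.3.3, limma 3.58.1): TMM scaling, filterByExpr, a quasi-likelihood fit of 6 group means over all 24 libraries, and Benjamini-Hochberg adjustment over 12963 genes. SE is the log2 fold change divided by the root of F, and intervals are 95%. The study's own analysis used DESeq2, which was run here as an alternative (1.42.0). CPM used TMM effective library sizes, and correlations used log2 of CPM plus 0.5. Symbols and exon lengths came from GENCODE M21 (53706 of 53801 genes matched) and promoters from RefSeq. The scripts were tested on simulated counts.

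The 9 receptors and all gene lists were chosen with earlier results of these data known. All 9 are named, and of each list up to 4 genes with the smallest p in the WT-ERG response and up to 4 in WT-ERG against BB in DMSO, plus the ligands; 1 gene so chosen is not reported here. For each receptor gene the 2 genes with the highest Pearson's r are named. *Adam8* in BB cells, *Il17ra* and *Il2rg* are given for their response differences, which were seen first. With 12510036 to 16280939 counts per library, a gene at a few counts gives little precision.

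Same-numbered libraries deviated together (r = 0.0704 to 0.628, median 0.239, over 60 pairs, 56 of them over 0.1). The source of this is not given, and in the BRD3308 response of WT-ERG and in P199L-ERG against BB in DMSO 1 pair each was under 0.1. The block is therefore given beside a receptor gene only where it changed a call in the other comparisons.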

Additional observations from a re-analysis of the deposited data

Results flagged for a closer look

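Of 54 groups of 4 libraries, 9 genes in 6 groups, 7 held a library far from the other 3 by Dixon's test, which chance does in about 1 of 20 groups. For *Kit* it was replicate 4 of BRD3308-treated P199L-ERG cells, at 280.6 CPM against 271.1 to 272.5. For *Csf1r* it was replicate 4 of BRD3308-treated WT-ERG cells, at 75.67 CPM against 62.35 to 64.08, and replicate 4 of DMSO-treated P199L-ERG cells, at 21.52 CPM against 25.46 to 26.2. Replicate 1 of DMSO-treated BB cells stood at 126.3 CPM of *Csf2ra* against 142.7 to 145. *Csf2rb* stood at 407.6 CPM in replicate 4 of DMSO-treated P199L-ERG cells against 488.5 to 499, *Csf2rb2* at 130.2 CPM in replicate 4 of BRD3308-treated BB cells against 120.5 to 122.1, and *Csf3r* at 157 CPM in replicate 1 of BRD3308-treated BB cells against 171.3 to 174. Of these 7 libraries, the one for *Csf1r* and the one for *Csf2rb* in DMSO-treated P199L-ERG cells are the same library, 1 of the 2 that stood apart.

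The response of *Csf2rb2* to BRD3308 differed between lines by edgeR's test of the difference: it exceeded that of BB cells by 0.457 (SE 0.0624, adjusted p = 3.53e-05) in WT-ERG and by 0.5844 (SE 0.0628, adjusted p = 1.23e-06) in P199L-ERG cells on the log2 scale. All 4 libraries of each ERG line were below all 4 BB libraries in DMSO, and under BRD3308 the differences from BB did not pass.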

How the results depend on the processing

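For the 108 log2 fold changes of the 9 genes in 12 comparisons, 7 alternatives were run besides leaving out libraries: RLE size factors, no scaling factor, no filter beyond 1 count, DESeq2, a fit of the compared groups only, a replicate block, and a fit without the 2 libraries that stood apart. Of 756 values 742 kept their direction and side of the threshold, 7 were no longer past it, 7 passed anew and 0 reversed. Leaving out each library in turn gave 2547 values on the same side, 40 lost and 5 gained calls. Across all alternatives, 66 uncalled values close to 0 changed sign. All-gene medians moved by less than 0.1 under each scaling. Among the 6 genes whose response differed between P199L-ERG and WT-ERG cells (3 larger, 3 smaller), RLE factors left 1 and 3.

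P199L-ERG against WT-ERG in DMSO had 2 receptor genes called. It had 1 without the filter (*Kit*), 0 in a fit of those groups only and 1 with *Csf2rb* and *Csf2rb2* summed. Fewer samples enter the second of these alternatives, and in the third *Csf2rb2* no longer had a row of its own. The cause of the first was not tested. Summing the paralogs took each response difference against BB from 1 to 0, since the called gene no longer had a row of its own. With 1 library left out, the number called ran from 5 to 8 for the BRD3308 response in BB, 1 to 3 for P199L-ERG against WT-ERG in DMSO, 6 to 7 for P199L-ERG against BB in DMSO, and 5 to 7 and 5 to 6 for WT-ERG and P199L-ERG against BB under BRD3308. It stayed at 7, 7, 7, 1, 1, 1 and 0 for the BRD3308 response in WT-ERG and P199L-ERG, WT-ERG against BB in DMSO, P199L-ERG against WT-ERG under BRD3308 and the 3 response differences.

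The replicate block gave 8, 7 and 7 calls for the BRD3308 response in BB, WT-ERG and P199L-ERG, 7, 7 and 3 for the DMSO comparisons and 7, 6 and 1 under BRD3308, and 1, 1 and 0 for response differences. Besides the calls given above it added *Csf2rb* in P199L-ERG against BB in DMSO (-0.10, adjusted p = 0.0423 by edgeR), and it removed no call. Of the 24 libraries 16 correlated best with their own number. *Csf1r* in WT-ERG against BB under BRD3308 also did not pass without the filter (adjusted p = 0.0514 by edgeR). Leaving out replicate 4 of DMSO-treated WT-ERG let *Csf3r* pass between the ERG lines in DMSO, leaving out replicate 4 of DMSO-treated P199L-ERG let *Il3ra* pass in both ERG lines against BB under BRD3308, and leaving out replicate 1 of BRD3308-treated BB let it pass in WT-ERG. Leaving out replicate 1 of DMSO-treated P199L-ERG let *Csf2rb* pass against BB. With the longest transcript as the length, 0 to 4 of the 9 genes changed rank in a group. *Flt3*, at 6 to 85 counts, is the gene with the least depth behind it.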
